A study of Mus musculus with 6 samples.

Results

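The genes described here are 34 genes of the actomyosin contractile apparatus and of the myofibroblast state: actins, myosin II and its kinase, tropomyosins, calponins, transgelins, actin crosslinkers, LIM domain proteins, intermediate filaments and serum response factor. They were chosen by symbol. Each of the 34 symbols matched 1 of the 49315 gene identifiers in the files, and all 34 passed the filter on low counts that left 16068 genes for testing. The samples were 6 untreated fibroblast lines from mouse embryos, grown with serum to passage 4 and profiled by RNA sequencing. Lines SG1, SG2 and SG3 were p53-/-;MDMXSG/SG, homozygous for a knock-in MDMX allele that carries W201S and W202G. Lines WT3, WT9 and WT11 were p53-/-;MDMXWT/WT. Both genotypes thus lacked p53 and were of the C57BL/6 strain, and each line came from a single embryo, so n counts embryos. MDMX is an inhibitor of p53 that also binds casein kinase 1 alpha, and the design asks which genes the mutation affects where p53 is absent.

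Nonmuscle cells contract with stress fibres, bundles of actin filaments that are crosslinked by alpha-actinin and filamin, stabilised by tropomyosin and pulled on by myosin II. Fibroblasts that take on the myofibroblast state add proteins otherwise typical of smooth muscle, with alpha smooth muscle actin (Acta2), transgelin and calponin 1 as the usual markers. Many of these genes are driven by serum response factor (SRF), which binds the CArG box in their promoters together with cofactors that respond to free actin. Fibroblasts grown on plastic in serum, as embryo fibroblasts are, commonly carry this programme. To compare paralogs, the members were divided by textbook knowledge into 12 muscle-enriched genes (Acta2, Actg2, Tagln, Cnn1, Myh11, Myl9, Mylk, Smtn, Lmod1, Des, Flnc, Synpo2), 12 nonmuscle genes (Actb, Actg1, Tagln2, Cnn2, Cnn3, Myh9, Actn1, Actn4, Flna, Tpm3, Tpm4, Vim) and 10 of broad expression. This division was made with earlier results of these data known.

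The libraries held between 49317925 and 65457242 counts. Xist RNA marked SG1 and WT9 as the lines with an inactive X chromosome, so each genotype held 1 such line. Mdm4, which encodes MDMX, averaged 60.04 ± 3.36 CPM (counts per 1000000 of the TMM-scaled library) in SG lines and 60.4 ± 2.32 CPM in WT lines (SD, n = 3 each). A count per gene does not show 2 changed codons, so it does not check the genotype. Of the 8 fibroblast markers, Col1a1 lay between 5453 and 6954 CPM in the 6 lines and Col1a2 between 3760.0 and 4783 CPM. The fibroblast proteoglycan genes Dcn and Lum were low, at 10.3 to 16.0 and 2.04 to 2.66 CPM.

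The RefSeq promoter table (GRCm38.p6) held 36 promoters of 29 members. It had no entry for Actb, Actg2, Tagln, Myh11 and Csrp2, so these were not searched. In the 250 bases before the start site, an exact CArG box lay in the promoters of 4 members, which is 11.1% of their promoters, against 1.47% of all 32851 promoters. The stretches around the boxes are shown because they are the binding sequence of SRF, itself a member. Of the genes searched, 1 of 9 muscle-enriched, 2 of 11 nonmuscle and 1 of 9 broadly expressed genes carry an exact box. Near matches were not counted, such as ccctatatgg in the promoter of Acta2, which misses the pattern by 1 base. Capitals mark the boxes, and sequences run 5′ to 3′ on the strand of the gene. They lie at chr11:120348546-120348625 (minus strand) for Actg1, chr10:79988504-79988583 (plus) for Cnn2, chr2:156775263-156775342 (plus) for Myl9 and chr17:46556185-46556284 (minus) for Srf.
Actg1: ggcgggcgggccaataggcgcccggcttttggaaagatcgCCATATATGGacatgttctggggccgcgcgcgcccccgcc
Cnn2: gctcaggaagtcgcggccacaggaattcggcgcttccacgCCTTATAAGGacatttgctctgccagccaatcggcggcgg
Myl9: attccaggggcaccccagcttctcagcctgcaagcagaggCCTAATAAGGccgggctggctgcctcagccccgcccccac
Srf: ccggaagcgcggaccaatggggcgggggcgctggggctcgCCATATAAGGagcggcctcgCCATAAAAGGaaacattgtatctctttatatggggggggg
The boxes begin 90, 56 and 161 bases before the start in Actg1, Cnn2 and Myl9. Srf carries 2 boxes, 82 and 62 bases before its start. The MCAT element CATTCC, searched on both strands, lay in 11 of the 36 promoters (30.6%), of Acta2, Actn4, Cald1, Flna, Flnc, Lmod1, Mylk, Palld, Smtn, Tagln2 and Tpm1, against 12.6% of all promoters. These matches describe the letters in a short window and do not show binding.

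As a set, the 34 genes were strongly expressed in all 6 lines. They took 4.23% ± 0.13 of the counts in SG lines and 4.16% ± 0.17 in WT lines (SD, n = 3 each). Most of this came from the 12 nonmuscle genes, which summed to 27535 to 29793 CPM over the lines. The 12 muscle-enriched genes summed to 5430 to 6677 CPM, and Acta2 alone stood at 3519.6 to 4339 CPM. Divided by exon length, Actb and Acta2 led, with 2299 to 2605 CPM per kilobase for the cytoplasmic beta-actin gene and 1976 to 2436 CPM per kilobase for the alpha smooth muscle actin gene over the 6 lines. Their ranges over the lines overlap, but Actb lay above Acta2 within each of the 6 lines. How reads shared by actin genes were counted was not stated. Actg1 (cytoplasmic gamma-actin) followed at 1171 to 1418, then Vim (vimentin, the intermediate filament protein of mesenchyme) at 903 to 1043 and Tpm4 at 689.7 to 728 CPM per kilobase. At the low end stood Lmod1 (9.47 to 12.9), Des (2.04 to 6.69), Myh11 (1.01 to 2.28), Mylk (0.338 to 0.737) and Synpo2 (0.295 to 0.491 CPM per kilobase), most of them genes of differentiated smooth muscle. The exon length is the union of all exons of a gene, which lowers the value of genes with many isoforms.

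**Figure D1:**
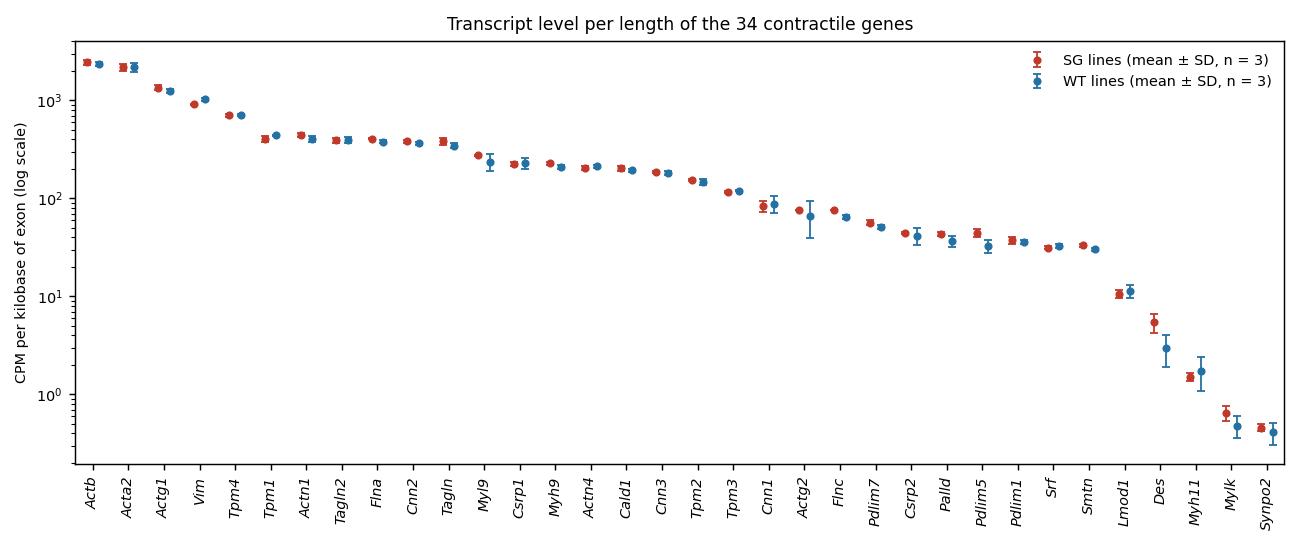
Level of each of the 34 genes in CPM per kilobase of exon, on a log axis, as mean ± SD of the 3 SG lines (red) and the 3 WT lines (blue). Mean levels over the 6 lines span from 2414 for Actb and 2175 for Acta2 to 0.563 for Mylk and 0.434 for Synpo2, and the means of both genotypes lie close together for most genes.

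Within families the smooth muscle paralog was abundant among actins and transgelins and scarce among myosin heavy chains. Of the summed level per length of the 4 actin genes, Acta2 made up 35.9% ± 1.61 in SG lines and 37.1% ± 1.65 in WT lines, while Actg2 (gamma smooth muscle actin) made up 1.26% ± 0.06 in SG lines and 1.12% ± 0.37 in WT lines. Tagln was 49.5% ± 0.43 of both transgelins in SG lines and 46.7% ± 1.46 in WT lines. Its level is uncertain, because 62.4% of its exon bases lie under an antisense transcript and the strand setting of the counting was not given in the sources used here. Cnn1 was 12.8% ± 1.58 of the 3 calponins in SG lines and 13.9% ± 2.27 in WT lines. Myh11, the smooth muscle myosin heavy chain, was 0.66% ± 0.05 in SG lines and 0.82% ± 0.28 in WT lines of its level and that of Myh9, the nonmuscle IIA heavy chain. SDs are over n = 3 lines throughout.

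Between genotypes 1 of the 34 genes passed the threshold, an adjusted p under 0.05 in edgeR's quasi-likelihood test with Benjamini-Hochberg adjustment over all 16068 genes. Flnc, which encodes the muscle-enriched filamin C, was higher in SG lines, and 0 members were lower. Over all genes 0.809% were called higher and 1.1% lower (1.9% in all), so a count of 1 in 34 is near the background. The median log2 fold change (SG minus WT) of the members was 0.07, against 0.00 over all tested genes, with 22 members above 0 and 12 below, where 50.7% of all tested genes lay above 0. Both genotypes did not overlap in 6 members higher in SG (Flnc, Pdlim5, Des, Smtn, Palld and Flna) and 2 lower (Vim and Tpm1), against 10% and 11.2% of all tested genes (21.2% in either direction). DESeq2 called 3 members, against 6.68% of the genes it gave an adjusted p. At an unadjusted p under 0.05 in edgeR there were 8 members, or 23.5%, against 15.5% of all tested genes. The 95% interval of the fold change lay within 1.5-fold in either direction for 28 members and within 2-fold for 33, with Des as the exception. A change in the share of contractile cells and a change in RNA per cell cannot be told apart in such bulk samples.

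**Figure D2:**
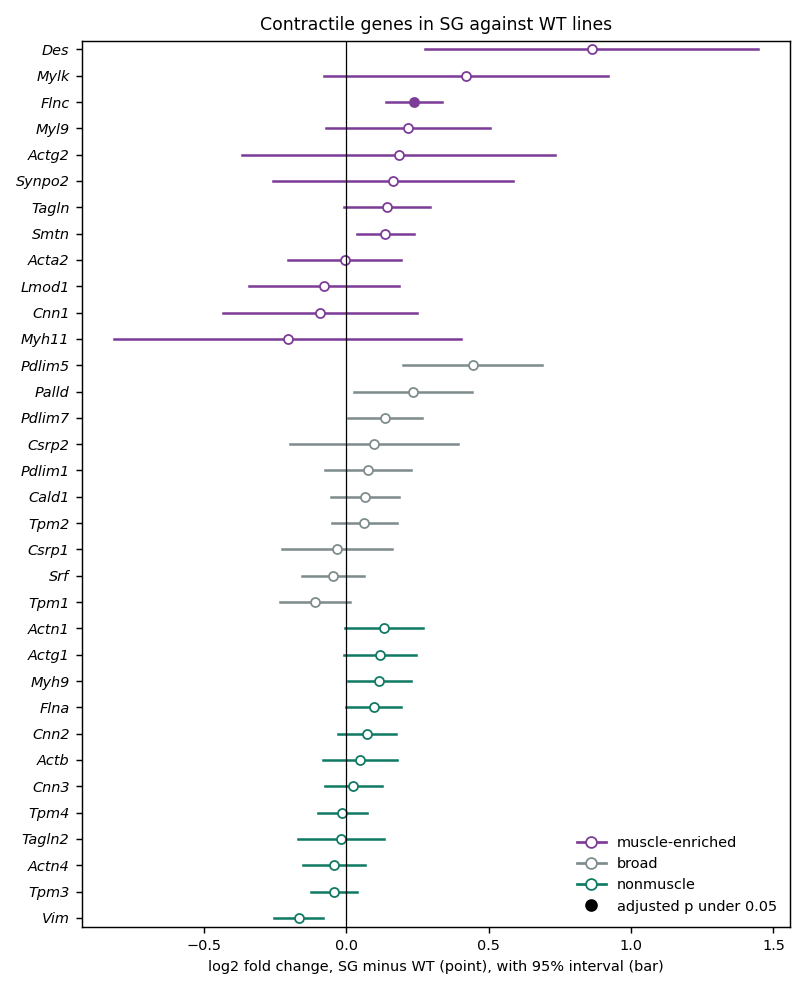
Log2 fold change of each member, SG minus WT, with its 95% interval, ordered by class (muscle-enriched, broad, nonmuscle) and by size. The filled point is Flnc, at 0.24 with an interval of 0.14 to 0.34, the single gene past the threshold; the intervals of the nonmuscle genes are narrow and those of Des, Myh11 and Actg2 wide.

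Filamins crosslink actin filaments into networks and tie them to membrane receptors. Flnc (ENSMUSG00000068699, chromosome 6, 29433256 to 29461883, GRCm38) stood at 713, 712 and 715 CPM in SG1, SG2 and SG3, against 606, 635 and 573 CPM in WT3, WT9 and WT11. The SG lines lay within 3 CPM of each other and above every WT line. It was 1.18-fold higher (log2 fold change 0.24, SE 0.04, edgeR adjusted p = 0.0385). Leaving out any line but WT9 ended the call: the adjusted p was 0.0569 without SG1, 0.165 without SG2, 0.0807 without SG3, 0.155 without WT3 and 0.101 without WT11, with log2 fold changes between 0.20 and 0.24. Flna, the gene of the ubiquitous filamin A, averaged 3817 ± 58.4 CPM over SG lines and 3573 ± 143 CPM over WT lines (log2 fold change 0.10, SE 0.04, edgeR adjusted p = 0.326). As a share of both filamins per length, Flnc was 15.7% ± 0.23 in SG lines and 14.5% ± 0.21 in WT lines.

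Of the other crosslinkers and scaffolds 0 passed. The alpha-actinins bundle antiparallel filaments in stress fibres, and Actn1 averaged 1682 ± 88.9 CPM over SG lines and 1533 ± 103 CPM over WT lines, while Actn4 averaged 1259 ± 61.8 CPM over SG lines and 1297 ± 43.0 CPM over WT lines. Actn1 was 68.3% ± 0.51 of both per length in SG lines and 65.5% ± 1.25 in WT lines, without overlap between genotypes. The CPM of Actn1 did overlap. Family shares of Tagln, Flnc, Tpm1 and Tpm2 did not overlap either, and no background was computed for such shares. Palld encodes palladin, a scaffold of dense bodies and stress fibres, at 421, 464 and 452 CPM in SG1, SG2 and SG3, against 391, 421 and 326 CPM in WT3, WT9 and WT11. Its lowest SG line and highest WT line nearly meet, and the log2 fold change was 0.23 (SE 0.09, edgeR adjusted p = 0.261).

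The LIM domain proteins link alpha-actinin to kinases and signalling partners. Pdlim5, which binds alpha-actinin at Z-discs and stress fibres, stood at 356, 426 and 399.6 CPM in SG1, SG2 and SG3, against 281, 335 and 253 CPM in WT3, WT9 and WT11. The groups did not overlap, and WT9 was closest to the SG lines. The log2 fold change was 0.44 (SE 0.11, edgeR adjusted p = 0.0846), with adjusted p = 0.00466 without the Xist-positive lines, and between 0.000293 (DESeq2) and 0.280 (without SG2) over all alternatives. Pdlim7 and Pdlim1 had log2 fold changes of 0.14 and 0.08. Csrp1 and Csrp2, small LIM proteins of smooth muscle and mesenchyme, had -0.03 and 0.10, and none of these 4 passed.

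The intermediate filament genes differed in direction, and neither passed the threshold. Vim stood at 4339, 4282 and 4360.5 CPM in SG1, SG2 and SG3, against 4947, 4709 and 4926 CPM in WT3, WT9 and WT11, with no overlap. Its log2 fold change was -0.17 (SE 0.04), the edgeR adjusted p was 0.0701, and DESeq2 gave 0.000543. Des, which encodes desmin, the intermediate filament protein of muscle, stood at 25.1, 19.4 and 16.5 CPM in SG1, SG2 and SG3, against 10.4, 15.4 and 7.66 CPM in WT3, WT9 and WT11. All SG lines lay above all WT lines, by a small margin between SG3 and WT9, and each genotype was highest in its Xist-positive line. The log2 fold change was 0.86 with an SE of 0.25 and a 95% interval of 0.28 to 1.45, and the edgeR adjusted p was 0.146. With Xist status as a covariate it was 0.0254, and over all alternatives it lay between 0.00935 and 0.363.

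Among actins, the main smooth muscle marker did not separate the genotypes. Acta2 (ENSMUSG00000035783, chromosome 19, 34241090 to 34255336) stood at 3942, 4109 and 3544 CPM in SG1, SG2 and SG3, against 3785, 4339 and 3519.6 CPM in WT3, WT9 and WT11. The lines of both genotypes interleave. The log2 fold change was -0.01, with a 95% interval that allows between 0.868-fold and 1.14-fold (edgeR adjusted p = 0.983). Actg2 was nearly equal in the SG lines, at 118 CPM in each, and spread widely in the WT lines, at 81.4, 153 and 77.3 CPM in WT3, WT9 and WT11. WT9 thus lay above and the other WT lines below all SG lines, and the log2 fold change was 0.18 (SE 0.24, edgeR adjusted p = 0.773). Without WT9 it was 0.57 (edgeR adjusted p = 0.00442). Actb and Actg1 had log2 fold changes of 0.05 and 0.12 (edgeR adjusted p = 0.747 and 0.364).

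Myosin II is the motor, and phosphorylation of its regulatory light chain by myosin light chain kinase (Mylk) switches it on. Myl9, a regulatory light chain of smooth muscle and stress fibres whose promoter holds the CArG box printed above, stood at 321, 324 and 314 CPM in SG1, SG2 and SG3, against 289.6, 319.8 and 216 CPM in WT3, WT9 and WT11. WT11 stands apart at the low end while WT9 lies among the SG lines (log2 fold change 0.22, SE 0.12, edgeR adjusted p = 0.474). Mylk was at 7.48, 5.25 and 6.93 CPM in SG lines, against 5.42, 5.82 and 3.43 CPM in WT3, WT9 and WT11. Myh11 stood at 10.5, 10.7 and 8.85 CPM in SG lines, against 12.8, 15.1 and 6.70 CPM in WT3, WT9 and WT11, so the WT lines lay on both sides of the SG lines. Myh9 averaged 2940 ± 89.0 CPM over SG lines and 2714 ± 142 CPM over WT lines (log2 fold change 0.12, SE 0.05). The edgeR adjusted p of Mylk, Myh11 and Myh9 was 0.413, 0.770 and 0.303.

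Proteins bound along the thin filament stabilise it and set its access to myosin, and 0 of these 12 genes passed. Tagln (transgelin) stood at 745, 827 and 709 CPM in SG1, SG2 and SG3, against 669, 734 and 663 CPM in WT3, WT9 and WT11, with overlap through WT9 (log2 fold change 0.14, edgeR adjusted p = 0.353). Cnn1 (calponin 1, an inhibitor of the myosin ATPase) stood at 256, 227 and 199 CPM in SG lines, against 273, 267 and 188 CPM in WT3, WT9 and WT11, and WT11 and SG3 were its lowest lines. Cnn2, with a CArG box, had a log2 fold change of 0.07, Cnn3 0.02 and Tagln2 -0.02. Of the exon bases of Cnn3, 17.7% lie under an antisense transcript. Smoothelin (Smtn) averaged 146 ± 5.82 CPM over SG lines and 133 ± 3.91 CPM over WT lines with no overlap (log2 fold change 0.14, SE 0.04, edgeR adjusted p = 0.174), and 16.3% of its exon bases lie under an antisense transcript. Lmod1, which encodes leiomodin 1, a nucleator of actin filaments in smooth muscle, had -0.08 and Cald1 (caldesmon) 0.06. The tropomyosins lay between -0.11 and 0.06, with Tpm1 at 2645 ± 179 CPM over SG lines and 2857 ± 48.6 CPM over WT lines. Srf itself stood at 127, 134 and 125 CPM in SG lines, against 126, 139 and 134 CPM in WT3, WT9 and WT11, a log2 fold change of -0.05 (SE 0.05, edgeR adjusted p = 0.685).

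Of the 6 lines, WT11 had the median deviation farthest from 0 over the members. This line was singled out, and the classes were drawn, with earlier results known. WT11 is also 1 embryo, so the values are a description with no test. WT11 was the lowest of the 6 lines in 19 of the 34 members, against 22.4% of all tested genes, and the highest in 1, against 22%. By class, it was lowest in 11 of 12 muscle-enriched genes, in 5 of 10 broad genes and in 3 of 12 nonmuscle genes. The exception among the muscle-enriched genes was Smtn, lowest in WT3. The first of these counts was 11 under every scaling and count filter run, while the nonmuscle count ranged from 2 to 6. Some of the 11 were near ties. Lmod1 was at 37.4 CPM in WT11 and 37.5 CPM in SG1, and Acta2 at 3519.6 CPM in WT11 and 3544 CPM in SG3. The 95% Poisson interval of the WT11 count lay below those of all other lines in 7 muscle-enriched genes. These were Cnn1, Des, Flnc, Myh11, Myl9, Mylk and Synpo2. That interval covers counting noise only and is narrow at these counts. It was computed for the muscle-enriched genes alone, so it does not set them apart from the other members. Relative to the mean log2 CPM of the other 5 lines, the median deviation of WT11 was -0.45 over the muscle-enriched genes, -0.10 over the broad genes, -0.04 over the nonmuscle genes and 0.00 over all tested genes. Class and level are mixed here. Des, Myh11, Mylk, Synpo2 and Lmod1 lay below 100 CPM, and every nonmuscle gene above it. The remaining muscle-enriched genes deviated by -0.06 (Smtn) to -0.58 (Actg2). Over tested genes at 100 CPM or more, WT11 had a median of 0.03, lowest in 15.0% and highest in 37.2%.

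**Figure D3:**
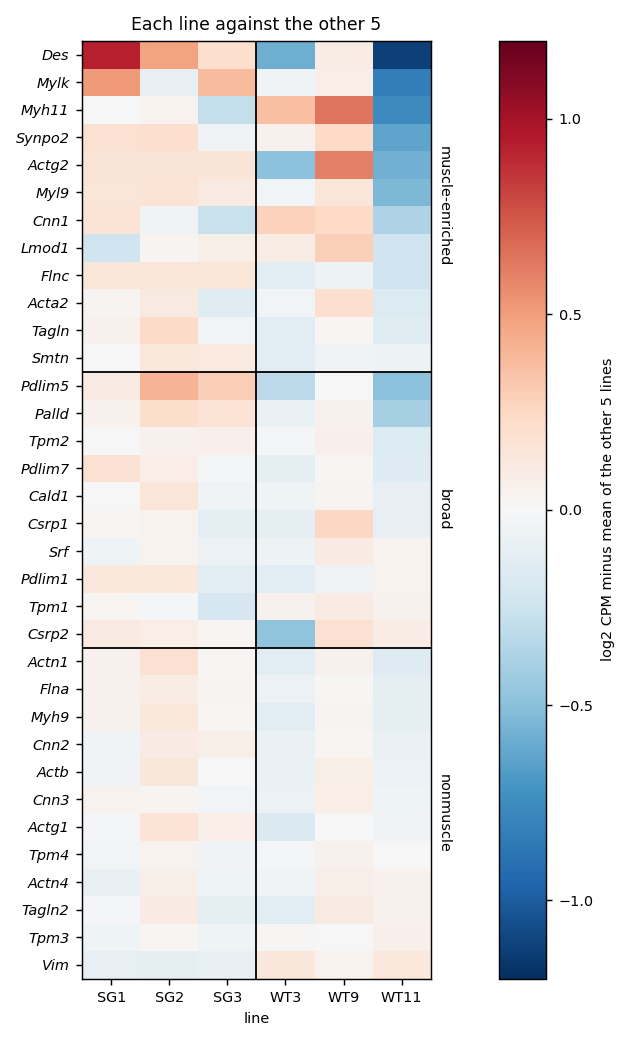
Log2 CPM of each member in each line minus the mean of the other 5 lines (red higher, blue lower), with SG lines left of WT lines and members grouped by class and ordered by WT11. In WT11 the muscle-enriched block is blue throughout, from -1.12 for Des to -0.06 for Smtn, while the nonmuscle block is pale in every line.

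At least 0.5 below the other lines on the log2 scale were 6 members, all muscle-enriched (Des, Mylk, Myh11, Synpo2, Actg2 and Myl9), against 8.48% of all tested genes, and 0 members lay 0.5 or more above them, against 4.14%. Des stood at 7.66 CPM in WT11, against 10.4 to 25.1 CPM in the other 5 lines. Mylk was at 3.43 CPM in WT11, against 5.25 to 7.48 CPM. Myh11 was at 6.70 CPM in WT11, against 8.85 to 15.1 CPM. In each of these 3 genes WT11 lay below every other line. Synpo2, which encodes the actin-bundling protein myopodin, was at 3.88 CPM in WT11, against 5.48 to 6.45 CPM in the others. Myl9 was 1.45-fold and Actg2 1.49-fold lower in WT11 than the mean of the other lines, but for Actg2 the value in WT3 (81.4 CPM) was close to that in WT11. These genes had at least 206 reads in a line.

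**Figure D4:**
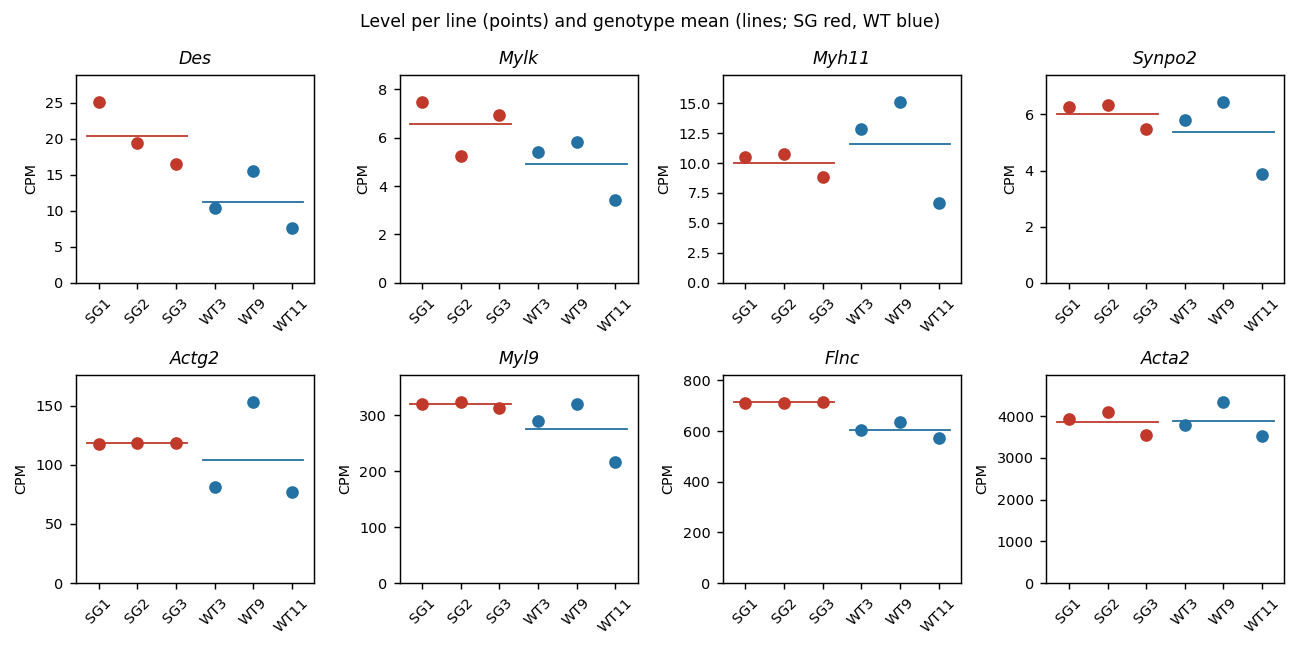
CPM per line for 8 muscle-enriched members, with the SG lines in red left of the WT lines in blue and a line at each genotype mean. WT11 is the lowest point in every panel, and Flnc is, with Des, where all SG lines lie above all WT lines.

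Over the muscle-enriched genes the median deviations of the other lines were smaller in size than that of WT11. They were 0.15 in SG1, 0.13 in SG2, 0.09 in SG3, -0.04 in WT3 and 0.17 in WT9. Over all members, SG2 (0.10) came close in size to WT11 (-0.12). Over the nonmuscle genes all 6 lines lay between -0.08 and 0.09. There SG2 (0.09), WT3 (-0.08) and WT9 (0.05) lay farther from 0 than WT11 (-0.04). WT3 was lowest in 8 members (23.5%), against 13.9% of all tested genes. An example was Csrp2, at 31.6 CPM in WT3 against 42.3 to 46.6 CPM in the other lines. SG2 was the highest line in 13 members (38.2%), against 14.0% of all tested genes. WT9 was the highest in 12 (35.3%), against 11.1%. Most members are at high levels, where these shares differ. Among tested genes at 100 CPM or more, WT3 was lowest in 18.8%, SG2 highest in 20.9% and WT9 highest in 8.93%. The median within-genotype SD of log2 CPM was 0.23 for muscle-enriched, 0.09 for broad and 0.06 for nonmuscle members, and 0.10 over all tested genes. At levels of at least 100 CPM, 28 members had a median SD of 0.07 and all 2252 such genes one of 0.05.

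Of 6 marker lists of other cells, 5 had their lowest sum in WT11, and the cardiac list did not. The 8 smooth muscle and pericyte markers summed to between 313 and 340.2 CPM in SG lines and between 247 and 337 CPM in WT lines, with 247 CPM in WT11 and 254 CPM in WT3. Of these, Myocd, the cofactor of SRF in smooth muscle, was at 1.39 to 2.54 CPM in the SG lines and 1.86 to 2.31 CPM in the WT lines (1.93 in WT11), and the pericyte gene Rgs5 was at 1.95 CPM in WT11 and 3.49 to 8.26 CPM elsewhere. The 7 skeletal muscle markers summed to 52.8 to 70.6 CPM in SG and 50.1 to 101 CPM in WT lines, nearly all of it Acta1 (skeletal actin). Their defining factors Myod1, Myog and Myf5 stood at 0.183 CPM or less in every line. The 5 macrophage markers summed to 10.1 CPM in WT11, 28.1 to 29.4 CPM in the other WT lines and 23.7 to 55.7 CPM in the SG lines. The sum of the 4 epithelial markers was 9.31 CPM in WT11, against 14.2 to 24.6 CPM elsewhere. That of the 3 endothelial markers was 38.4 CPM in WT11, against 46.2 to 71.1 CPM elsewhere. For the 5 cardiac markers the sums were 6.47 to 9.15 CPM in SG lines and 6.50 to 11.7 CPM in WT lines (7.03 in WT11). Of all these markers 0 passed between genotypes, and their part in the low values of WT11 was not tested. The 8 proliferation genes summed to 1811 CPM in WT11, against 1647 to 1717 CPM elsewhere.

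The genotype comparison was repeated without WT11. The median log2 fold change of the members was then 0.03 and 0 members passed, with Flnc at 0.20 and Des at 0.65. Over all genes 29 passed in that fit. Without WT9, 4 members passed, all higher in SG (Actg2, Des, Flnc and Pdlim5), and over all genes 460 passed, or 2.82%.

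Lists of other genes around the contractile apparatus gave between 0 and 2 calls each, where 1.9% of all tested genes were called. In lists this short, a single call lies above that share. Of 8 tested SRF cofactors 0 passed, and Mrtfa and Mrtfb, which carry the actin signal to SRF, had log2 fold changes of -0.03 and 0.03. The 24 genes of RhoA and ROCK signalling, the switch that activates myosin and actin assembly, had a median of 0.01 and 0 past the threshold. Of 14 other SRF target genes, 1 was higher (Sorbs2, an actin adaptor, with a mean of 44.3 ± 13.6 CPM over SG lines and 8.52 ± 5.01 CPM over WT lines, edgeR adjusted p = 0.0355). That call was lost without SG2 (edgeR adjusted p = 0.143), SG3 (0.0665), WT3 (0.155) or WT11 (0.104), and with a robust prior (0.123). Ankrd1, a target of SRF and YAP, averaged 274 ± 59.6 CPM over SG lines and 173 ± 57.9 CPM over WT lines with overlap (edgeR adjusted p = 0.248).

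Among 19 tested further contractile genes, Myh10 was higher and 0 were lower. Myh10 encodes the nonmuscle IIB heavy chain, and it stood at 1009, 1172 and 1243 CPM in SG1, SG2 and SG3, against 754, 799 and 674 CPM in WT3, WT9 and WT11. The groups were well apart, and the level was 1.54-fold higher (log2 fold change 0.62, SE 0.09, edgeR adjusted p = 0.0219). Leaving out SG2, WT3 or WT11 ended the call, with edgeR adjusted p = 0.107, 0.1 and 0.0846 and log2 fold changes of 0.60, 0.63 and 0.56. Its paralogs among the members, Myh9 and Myh11, did not pass. Of 15 other myofibroblast markers, Fn1 (fibronectin) was 1.32-fold higher and S100a4, a calcium-binding protein of motile fibroblasts, 1.99-fold lower in SG lines (edgeR adjusted p = 0.0308 and 0.0362), and 51.7% of the exon bases of S100a4 are shared with another annotated gene. Both calls were lost without SG1, SG2, WT3 or WT11, with edgeR adjusted p between 0.0569 and 0.129 for Fn1 and between 0.0539 and 0.169 for S100a4, which also missed with a robust prior (0.104). Of the 8 fibroblast markers, Thy1 was 1.64-fold lower in SG lines (edgeR adjusted p = 0.00802, and 0.0629 without SG2). With 1 higher and 1 lower, the myofibroblast list had a median log2 fold change of -0.02.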

How the data were processed

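Poly(A) RNA from 6 fibroblast lines was analysed as deposited. Per the file headers, the authors deposited whole-number read counts per gene with exon positions and length. Per the submitters' processing notes, Trimmomatic 0.36, STAR 2.5.2b, featureCounts of Subread 1.5.2, DESeq2 and GRCm38 were used; how featureCounts treated strand and multimapping reads was not stated there. Counts of overlapping genes and of actin genes, which have near-identical copies, are therefore uncertain. The 34 members, the lists and the 3 classes were chosen with earlier results of these data known. Counts were fitted with edgeR 4.0.16 in R 4.3.3 (filterByExpr, TMM, glmQLFit, glmQLFTest, no covariate, 2-sided, Benjamini-Hochberg over 16068 genes, threshold 0.05). SE is the log2 fold change over the square root of F, and 95% intervals use the degrees of freedom of that test. Line deviations use log2 CPM with a prior count of 2. CPM per kilobase divides by the deposited exon length. The CArG box was searched with its central 6 bases each A or T. DESeq2 1.42.0, other scalings and filters, a robust prior, Xist status and leaving out lines were alternatives. The fit was tested on simulated data. All members are named; of other lists, up to 4 genes past the threshold are named, and Mrtfa, Mrtfb, Ankrd1 and single markers were picked after values were seen. Litter and sequencing run are not given in the sources used here. Total counts per line of 49317925 to 65457242 gave at least 206 reads per member and line.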

Additional observations from a re-analysis of the deposited data

How the results depend on the processing

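The number of members past the threshold was 1 with RLE, upper-quartile or plain library scaling, with a stricter count filter and with a robust prior. It was 4 without a count filter (Des, Flnc and Pdlim5 higher, Vim lower), 3 with DESeq2 (Flnc and Pdlim5 higher, Vim lower), 2 with Xist status as a covariate (Des and Flnc) and 4 without the Xist-positive lines SG1 and WT9 (Actg2, Des, Flnc and Pdlim5). Leaving out 1 line at a time it ranged from 0 to 4. Over all genes 306 passed, 959 without a count filter, 948 with DESeq2, 421 with Xist status as a covariate, 703 without the Xist-positive lines and between 3 (without SG2) and 579 (without SG1) with 1 line left out. The cause of these differences was not tested. In 493 of 510 alternative values of single members, the call was as in the fit with all lines; 12 gained and 5 lost it. The median deviation of WT11 over the members, -0.12, lay between -0.14 and -0.10 under all scalings, filters and lines left out. No paired analysis was possible because the genotypes share 1 line number only. With 3 lines per genotype, changes of members with wide spread, such as Des or Myh11, are poorly bounded.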
